A study of Mus musculus with 132 samples.

Results

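A set of 34 pluripotency and germline genes was followed from undifferentiated mouse embryonic stem cells (mESCs) through Flk1+ mesoderm to CD41+ hematopoietic progenitor cells (HPCs). The genes were chosen by name from 25146 entries of a read-count table and fall into 15 genes of the naive state, 11 general genes used in both the naive and the primed state, 2 primed genes and 6 germline genes. RNA without poly(A) tails was sequenced in 23 libraries of E14-TG2a mESCs (strain 129/Ola) and their derivatives. Undifferentiated wild-type cells at day 0 gave 2 libraries, kept in serum and LIF. Mesoderm was sorted on Flk1 at day 4 from embryoid bodies given BMP4 and then bFGF and Activin A, with 3 libraries of each genotype, namely P1-CTCF-KO, P2-CTCF-KO and wild type. HPCs were sorted on CD41 at day 7 after culture with SCF and VEGF, with 4 libraries of wild type, 5 of P2-CTCF-KO and 3 of P1-CTCF-KO. The knockouts lack the CTCF site beside the distal (P1) or proximal (P2) promoter of Runx1, removed with CRISPR-Cas9. The undifferentiated libraries are labelled E14 and not with a clone. In mesoderm and HPCs each genotype was represented by 3 clones grown from single colonies. These were B9.3, C6.1 and C8.1 for wild type, E7.1, E7.2 and E9.1 for P1-CTCF-KO, and D2.1, D10.1 and another clone named E9.1 for P2-CTCF-KO. A further HPC library came from each of the wild-type clone B9.3 and the P2-CTCF-KO clones D10.1 and D2.1.

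The naive state is the ground state of mESCs held by LIF signalling and a network of transcription factors around Nanog, Esrrb, Tfcp2l1 and the Klf proteins, whereas the primed state resembles the epiblast shortly before gastrulation and is marked by Otx2. Pou5f1 (Oct4) and Sox2 serve both states. Lin28a and Lin28b block maturation of let-7 microRNAs, and Trim71 is a let-7 target. Several germline genes, among them Tdrd12 and Mael of the piRNA pathway, are also transcribed at a low level in mESCs.

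The deposited counts were totalled over exons and introns. Library totals ran from 7805102 to 24406998, but ribosomal RNA and entries listed at several loci took 68.09 to 90.98% of them. The remaining depth was 4858658 to 7748566 counts in undifferentiated mESCs, 1897917 to 2288976 in mesoderm and 878966 to 1584401 in HPCs, so a low gene in HPCs rested on few reads. Levels are given as CPM, the count relative to the TMM-scaled library size, comparable between libraries rather than absolute. Ribosomal RNA depletion is named for the undifferentiated mESCs alone, and their 2 libraries are labelled technical replicates of E14. Comparisons with them are therefore also comparisons between library preparations, and between E14 and the clones. The p-values of these comparisons measure the spread between these libraries. The label of Flk1+ cells was checked with Kdr, the gene of Flk1, which had 221 to 652 counts in wild-type mesoderm. Blood progenitor markers summed to 156.3 to 220.9 CPM in wild-type HPCs against 6.97 to 21.3 CPM in wild-type mesoderm. Runx1, Hbb-bh1 and Itga2b made most of the HPC sum, with means of 97.5, 38.4 and 28.4 CPM. Gata2 alone of that list was lower in HPCs (0.854 against 1.24 CPM), and Ptprc had 0 to 3 counts there. In such bulk samples fewer cells of a type and less RNA per cell cannot be told apart.

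**Figure D1:**
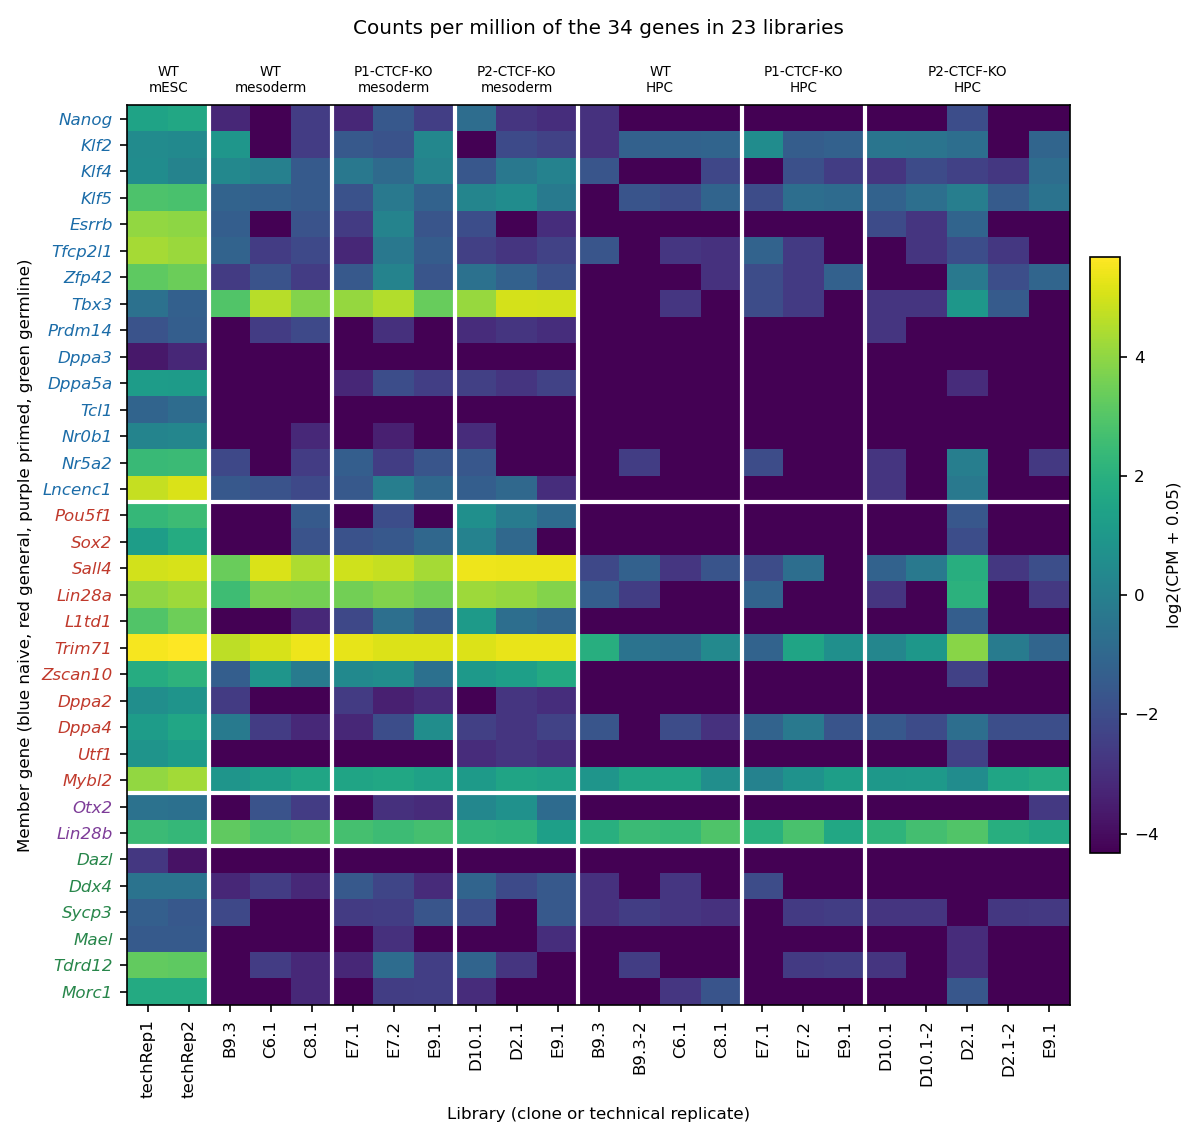
Level of each of the 34 genes (rows, grouped as naive, general, primed and germline) in each of the 23 libraries (columns, grouped by stage and genotype), as log2 of CPM plus 0.05 in color. Most rows are bright in the 2 undifferentiated libraries alone, Tbx3 is brightest in mesoderm, and Lin28b keeps a similar color in all stages.

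Between undifferentiated mESCs and wild-type mesoderm most of the set was called lower. Of the 32 genes that passed the filter on low counts, 23 were called lower (13.6% of all 12899 genes tested were) and 1, Tbx3, was called higher (10.8% of all genes were). The calls comprised 10 of 14 tested naive genes, 8 of 11 general genes, 1 of 2 primed genes and 4 of 5 germline genes. A call required an adjusted p under 0.05 by the quasi-likelihood test of edgeR, with a log2 fold change beyond 1 in either direction. Genes such as Tcl1, Mael, Utf1 and Dppa5a passed the filter through the mESC libraries alone, so they could only be called lower than in mESCs. The share over all genes, which pass through any stage, is therefore not a like comparison. This limit holds for HPCs against mESCs too. The median log2 fold change was -4.97 over the 32 genes, or -3.71 with the 4 genes that had no count in wild-type mesoderm set at their bound, beside -0.18 over all genes tested. Since the 2 mESC libraries are technical replicates of 1 sample, they were also summed to 1 library, whose spread was then taken from the other groups. That fit called 19 of the 32 genes lower (5.29% of 13528 genes were) and lost Mael, Tcl1, Otx2 and Zscan10 (adjusted p from 0.058 to 0.15). With either of the mESC libraries left out instead, Ddx4 and Dppa4 were lost besides, although the log2 fold change of Dppa4 stayed at -3.03 and -2.64.

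The core naive factors were nearly absent from mesoderm. Nanog had 506 and 318 counts in the undifferentiated libraries and 1, 0 and 2 counts in wild-type mesoderm, an estimated 40.5-fold decrease with a counting interval of 13.8 to 196.9. Esrrb, an orphan nuclear receptor, fell from 16.4 and 15.4 CPM to 0.349, 0 and 0.241 CPM (log2 fold change -6.09 ± 0.47 (SE), adjusted p = 0.00013). Tfcp2l1, a Grainyhead-like factor, fell from 20.0 and 17.9 CPM to 0.407, 0.121 and 0.180 CPM (log2 fold change -6.19 ± 0.42, adjusted p = 1.8e-05). Undifferentiated and mesoderm libraries did not overlap for any of these 3 genes. The nuclear receptor Nr5a2 fell by 5.51 ± 0.52 on the log2 scale (adjusted p = 9.5e-05). The zinc finger gene Klf5 fell by 4.31 ± 0.45 (adjusted p = 0.00014). Nr0b1 (Dax1), another nuclear receptor, had 198 and 117 counts and then 0, 0 and 1, which is 2.15% of its undifferentiated level (counting interval 0.0543 to 12.1%). Lncenc1, a long non-coding RNA of mESCs, held the highest naive level in undifferentiated cells at 27.8 and 34.3 CPM, and retained 0.291, 0.243 and 0.180 CPM. Dppa5a, a KH-domain RNA-binding protein, went from 406 and 221 counts to 0 in each wild-type mesoderm library, at least 30.8-fold lower with a floor of 3 counts over the group. Tcl1, a coactivator of Akt, had 77 and 54 counts and then 0 in all 21 differentiated libraries. Dppa3 was near the limit of detection from the start, with 5 and 6 counts, and was not tested.

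The start regions of Nanog and Zfp42 are shown because they hold letter matches to motifs of Oct and Sox factors. Both are read from the mm9 genome (NCBIM37) in the direction of transcription, from 250 bases before to 49 after the start. In Nanog (chr6:122657257-122657556, plus strand) capitals mark a match to the composite of a Sox and an Oct motif (CATTGT, any base, then ATGCNAA), on the opposite strand and 75 bases upstream of the start. In Zfp42 (chr8:44392314-44392613, minus strand), which encodes the zinc finger protein Rex1, capitals mark the bases covered by an ATAC-seq peak in wild-type mesoderm.
Nanog: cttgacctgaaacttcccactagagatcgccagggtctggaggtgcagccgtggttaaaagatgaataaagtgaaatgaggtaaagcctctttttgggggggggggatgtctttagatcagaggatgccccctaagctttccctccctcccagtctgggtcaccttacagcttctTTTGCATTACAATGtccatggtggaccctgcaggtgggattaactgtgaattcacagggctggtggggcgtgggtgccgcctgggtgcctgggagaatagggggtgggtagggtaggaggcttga
Zfp42: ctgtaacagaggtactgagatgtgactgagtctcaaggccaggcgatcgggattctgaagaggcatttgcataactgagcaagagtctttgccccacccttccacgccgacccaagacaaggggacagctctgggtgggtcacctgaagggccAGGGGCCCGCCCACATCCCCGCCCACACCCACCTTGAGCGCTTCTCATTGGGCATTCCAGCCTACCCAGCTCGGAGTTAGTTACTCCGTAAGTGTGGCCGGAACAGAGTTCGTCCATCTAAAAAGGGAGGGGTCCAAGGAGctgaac
With both strands searched, the composite was found in 1 of 24941 start regions of that length (0.00401%), that of Nanog. The octamer ATGCAAAT was found in 426 of them (1.71%) and among the 34 genes in Zfp42 alone, 186 bases upstream on the opposite strand, in lower case above. These are letter matches and were not tested as binding sites. Zfp42 itself fell from 9.02 and 10.7 CPM to 0.116, 0.243 and 0.120 CPM (log2 fold change -6.07 ± 0.42, adjusted p = 1.8e-05), although an ATAC-seq peak of 141 bases lay over its start in mesoderm.

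3 naive genes did not follow this course or could not be called. Klf4 had 1.40 and 1.07 CPM in undifferentiated cells and 1.22, 0.971 and 0.301 CPM in mesoderm, so that the groups overlapped (log2 fold change -0.60 ± 0.55, adjusted p = 0.44). Klf2 had 251 and 132 counts and then 32, 0 and 2, with the 32 in clone B9.3 (log2 fold change -0.84 ± 0.79, adjusted p = 0.46). Without that library Klf2 was called lower (log2 fold change -4.0, adjusted p = 0.0022). Prdm14, a germ cell and naive regulator, had 44 and 35 counts and then 0, 1 and 3 (log2 fold change -1.57 ± 0.81, adjusted p = 0.18).

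Tbx3 moved the other way. This T-box transcription factor belongs to the naive network and is also used in mesoderm and endoderm. It had 0.617 and 0.363 CPM in undifferentiated mESCs and 7.61, 23.9 and 13.9 CPM in wild-type mesoderm, where every library lay above both undifferentiated ones (log2 fold change 4.90 ± 0.53, adjusted p = 0.00015). P1-CTCF-KO mesoderm had 17.2, 22.9 and 10.2 CPM and P2-CTCF-KO mesoderm 17.6, 32.2 and 31.7 CPM, overlapping wild type at both genotypes. In 11 of the 12 HPC libraries Tbx3 had 0 to 3 counts, and the P2-CTCF-KO library D2.1 had 27. Its start region (chr5:120120621-120120920, plus strand, mm9), shown because it lies wholly within a mesoderm ATAC-seq peak of 418 bases, is printed in capitals that mark the bases of the peak.
Tbx3: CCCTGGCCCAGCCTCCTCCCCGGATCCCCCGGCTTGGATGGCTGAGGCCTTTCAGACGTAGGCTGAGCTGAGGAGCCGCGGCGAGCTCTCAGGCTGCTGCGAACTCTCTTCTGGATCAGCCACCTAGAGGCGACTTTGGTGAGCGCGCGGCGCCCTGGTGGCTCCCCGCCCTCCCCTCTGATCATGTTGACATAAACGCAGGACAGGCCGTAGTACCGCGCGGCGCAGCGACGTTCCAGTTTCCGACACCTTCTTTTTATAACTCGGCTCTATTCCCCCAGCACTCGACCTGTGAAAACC
An HPC peak of 320 bases also covered the Tbx3 start, at a stage where the gene had next to no counts. Endoderm markers, Tbx3 not among them, summed to 12.9 to 14.01 CPM in wild-type mesoderm and 0.177 to 0.257 CPM in undifferentiated cells. Gata4 and Gata6, which mesoderm also uses, made most of the mesoderm sum, with means of 6.35 and 4.32 CPM. Foxa2, Afp and Ttr were at 0 in wild-type mesoderm, and Foxa1 had at most 1 count. The part of endoderm in the Tbx3 result was not tested.

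Of the 11 general genes 8 were called lower, among them Pou5f1 and Sox2, and Sall4, Lin28a and Trim71 were not. Pou5f1 had 901 and 581 counts in undifferentiated cells and 0, 0 and 5 in wild-type mesoderm (log2 fold change -5.47 ± 0.69, adjusted p = 0.00088). Sox2 had 427 and 356 and then 0, 0 and 4 (log2 fold change -4.91 ± 0.74, adjusted p = 0.002), and its span lies within that of the long non-coding Sox2ot on the same strand, whose reads could be shared. DESeq2 called neither of these (adjusted p = 0.23 and 0.26), nor Tcl1 and Otx2 (adjusted p = 0.16 and 0.18), nor Mael. L1td1, an RNA-binding protein derived from a retrotransposon, had 1418 and 1125 counts and then 0, 0 and 1, which is 0.267% of its undifferentiated level with a counting interval of 0.00675 to 1.49%. Utf1, a chromatin-associated factor, had 321 and 230 counts and then 0 in each wild-type mesoderm library, at least 27.1-fold lower. Dppa2, of the Dppa2 and Dppa4 chromatin pair, had 273 and 180 counts and then 2, 0 and 0 (2.99%, interval 0.361 to 10.9%), while Dppa4 had 413 and 305 and then 14, 1 and 1. Mybl2, a MYB-family regulator of the cell cycle, fell from 16.3 and 19.6 CPM to 1.80, 2.31 and 2.88 CPM (log2 fold change -2.95 ± 0.30, adjusted p = 0.00013). Zscan10, a zinc finger factor of mESCs, fell by 2.14 ± 0.51 on the log2 scale (adjusted p = 0.015), a call that ended without wild-type mesoderm library C8.1 (adjusted p = 0.06).

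Sall4, a zinc finger factor of stem cells and embryonic mesoderm, had 32.0 and 33.7 CPM in undifferentiated cells and 10.5, 34.1 and 21.7 CPM in wild-type mesoderm (log2 fold change -0.59 ± 0.38, adjusted p = 0.27). Lin28a had 16.0 and 18.2 CPM and then 5.93, 12.1 and 11.96 CPM (log2 fold change -0.79 ± 0.40, adjusted p = 0.16). Trim71, a ubiquitin ligase and RNA-binding protein, had 46.2 and 50.7 CPM and then 25.7, 33.6 and 42.8 CPM (log2 fold change -0.51 ± 0.50, adjusted p = 0.47). All 3 genes were lowest in clone B9.3. Endothelium markers summed to 81.9 CPM in that library, the highest of wild-type mesoderm, beside a median of 13.4 CPM. The part of endothelium in these values was not tested. The Lin28a and Trim71 libraries of mesoderm all lay below the undifferentiated ones, so the failure to reach the threshold does not show that their levels were equal. Per kilobase of the counted span, Sall4 at 1.17 CPM and Tbx3 at 1.09 CPM were the highest of the set in wild-type mesoderm, followed by Lin28a at 0.646 and Trim71 at 0.641, whereas Dppa5a at 1.91 and Sall4 at 1.74 led in undifferentiated cells. The start region of Trim71 (chr9:114473438-114473737, minus strand, mm9) is shown as that of a general gene that persisted with a peak near the start, with the bases of the mesoderm ATAC-seq peak in capitals.
Trim71: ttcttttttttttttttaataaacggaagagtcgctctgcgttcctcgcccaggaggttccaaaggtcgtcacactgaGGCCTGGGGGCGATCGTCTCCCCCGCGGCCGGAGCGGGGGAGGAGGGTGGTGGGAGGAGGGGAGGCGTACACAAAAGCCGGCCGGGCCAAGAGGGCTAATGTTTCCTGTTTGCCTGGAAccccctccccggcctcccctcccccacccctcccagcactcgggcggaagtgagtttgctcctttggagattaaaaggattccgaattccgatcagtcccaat
The peak lay 54 bases from the start of Trim71. Lin28a persisted with no peak within 500 bases of its start, the nearest lying 5463 bases away.

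The primed genes parted. Otx2 had 114 and 60 counts in undifferentiated cells and 0, 2 and 2 in wild-type mesoderm (log2 fold change -2.61 ± 0.74, adjusted p = 0.031). Lin28b had 5.58 and 5.04 CPM and then 9.36, 7.04 and 7.82 CPM, every mesoderm library above the undifferentiated ones but short of the threshold (log2 fold change 0.60 ± 0.27, adjusted p = 0.12). Its mean in wild-type mesoderm was 8.07 ± 1.18 CPM (SD, n = 3 clones). Without wild-type mesoderm library B9.3 or C8.1, Otx2 was no longer called (adjusted p = 0.075 and 0.08).

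No germline gene had more than 3 counts in every mesoderm library. Their summed level fell from 13.8 and 14.4 CPM in undifferentiated mESCs to between 0.180 and 0.243 CPM in wild-type mesoderm, 1.28 to 1.72% of the undifferentiated mean. Tdrd12, a Tudor-domain protein of the piRNA pathway, made most of that sum, with 1771 and 931 counts, and had 0, 1 and 1 in wild-type mesoderm (0.502% of its level, interval 0.0607 to 1.81%). Morc1, which represses transposons in the male germline, had 614 and 349 counts and then 0, 0 and 1 (0.704%, interval 0.0178 to 3.93%). Both were near the floor of detection in mesoderm. The RNA helicase gene Ddx4 (Vasa) had 118 and 66 counts and then 1 in each of 3 libraries (11.1%, interval 2.26 to 32.8%). Mael had 56 and 31 counts and then 0 in all 3, at least 4.28-fold lower. Sycp3, a protein of the synaptonemal complex, had 66 and 29 counts and then 3, 0 and 0 (21.4%, interval 4.34 to 64.5%, adjusted p = 0.053), and its end overlaps Chpt1 on the other strand over 424 bases. Dazl had 19 and 2 counts in undifferentiated cells and 0 in all other libraries, too few to test. Markers of primordial germ cells, of which Dppa3 and Prdm14 are members of the set, summed to 2.55 and 2.68 CPM in undifferentiated cells. They summed to 0.364 to 0.697 CPM in wild-type mesoderm, where Prdm1 was the largest part with a mean of 0.314 CPM.

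**Figure D2:**
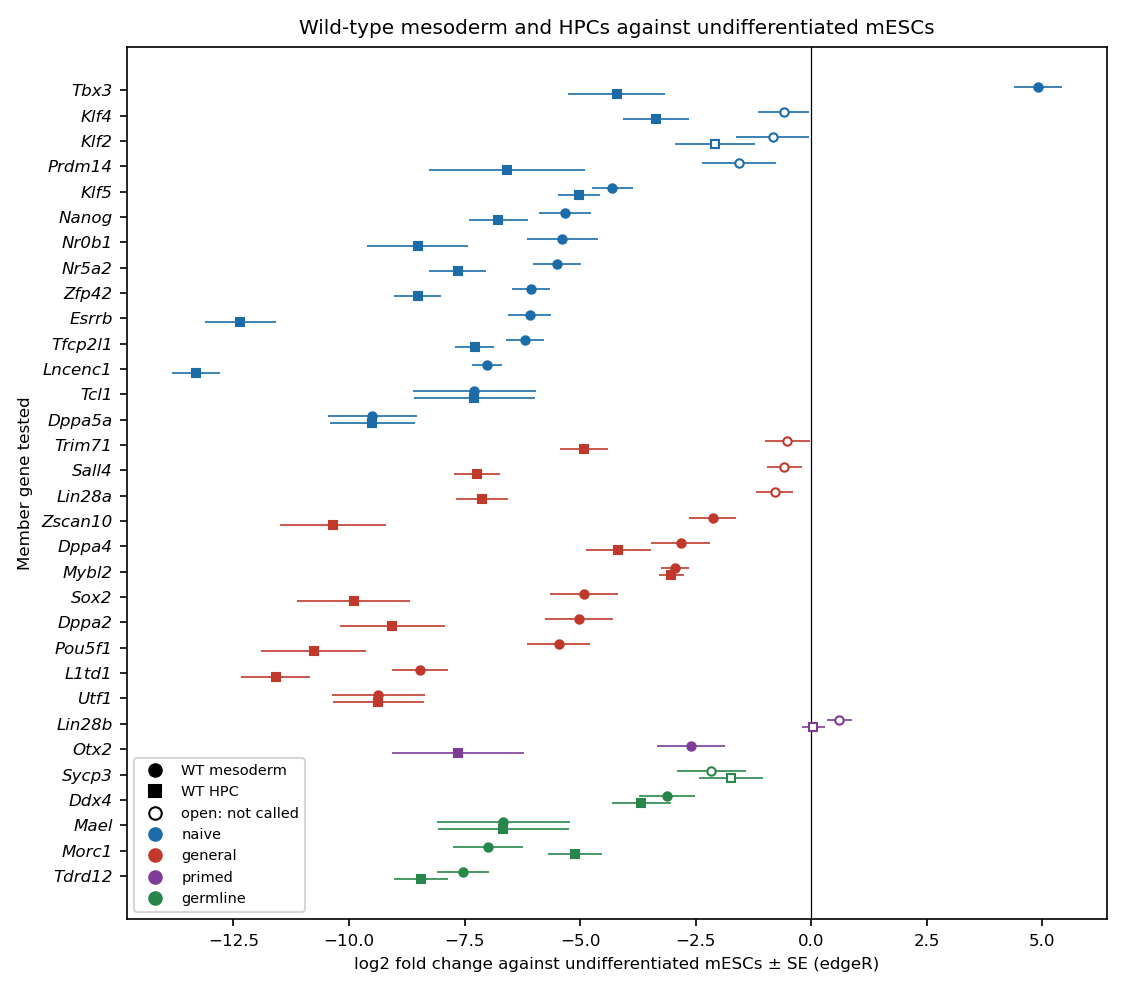
Log2 fold change against undifferentiated mESCs, with its standard error, of each gene tested (rows), for wild-type mesoderm (circles) and wild-type HPCs (squares), with filled symbols for genes called and open symbols for those not called. In mesoderm Tbx3 alone is called higher, and Sall4, Lin28a, Trim71, Klf4 and Lin28b lie near 0. Fold changes of genes with no count in a group depend on the prior count and are not bounds.

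By these values 6 of the 34 genes persisted in Flk1+ mesoderm, with more than 3 counts in each of the 9 mesoderm libraries and no call as lower in wild-type cells. They were Tbx3 (chr5:120120871-120134733) and Klf4 (chr4:55540009-55545347) of the naive genes, Sall4 (chr2:168573832-168592701), Lin28a (chr4:133559245-133574731) and Trim71 (chr9:114420391-114473487) of the general genes, and Lin28b (chr10:45096425-45190007) of the primed genes, all in mm9. Klf4 lay close to that floor, at 4 to 21 counts, and unlike the other persisting genes it did not reach 10 counts in every mesoderm library. Zscan10 and Mybl2 also had more than 3 counts in every mesoderm library but were called lower. Another 9 genes had 3 counts or fewer in each of the 9 libraries, namely Prdm14, Dppa3, Tcl1, Nr0b1, Dppa2, Utf1, Dazl, Mael and Morc1. In wild-type mesoderm the summed naive genes stood at 12.7 to 26.4% of their undifferentiated level, or 1.97 to 4.99% with Tbx3 left out. The summed general genes stood at 31.3 to 58.3%, a sum carried by Sall4, Lin28a and Trim71. Persistence depended on the scaling. With library sizes taken without ribosomal RNA and multi-locus entries and with TMM factors, the same 6 genes persisted. With these library sizes and no normalization factors the median log2 fold change of all genes was -1.82, and of the 6 genes only Tbx3 was not called lower. On that last scale Sall4 changed by -2.44, Lin28a by -2.54, Trim71 by -2.21, Klf4 by -2.29 and Lin28b by -1.05.

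**Figure D3:**
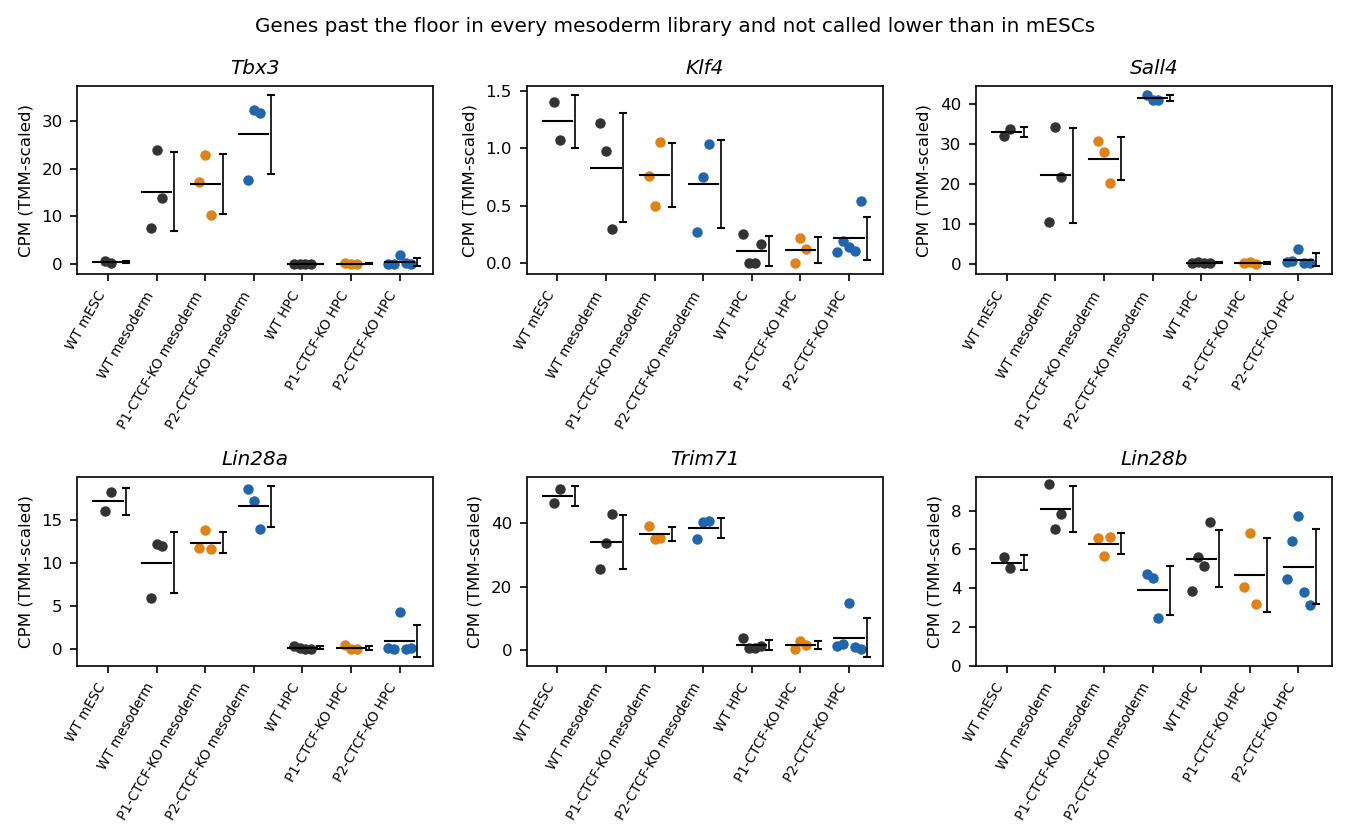
CPM in each library (points) of the 6 genes that persisted in mesoderm, by stage and genotype, with the group mean (line) and SD (bar). Tbx3 is high in mesoderm, Sall4, Lin28a and Trim71 are low in HPCs with the P2-CTCF-KO library D2.1 highest among them, and Lin28b overlaps between stages.

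From mesoderm to HPCs the persisting genes other than Lin28b fell in their turn. In wild-type cells 8 of the 32 tested genes were called lower (12.5% of all genes tested were), with a median log2 fold change of -2.30 over the 32, or -1.17 with 7 genes at their bound, beside -0.01 over all genes. The 32 include genes such as Tcl1, which had no count at either stage and could not be called. Sall4 had 0.172, 0.384, 0.0986 and 0.250 CPM in the 4 wild-type HPC libraries, 90.3-fold below mesoderm by summed counts (log2 fold change -6.64 ± 0.48, adjusted p = 1.4e-05). Lin28a had 4, 1, 0 and 0 counts (log2 fold change -6.34 ± 0.56, adjusted p = 2.5e-05). Trim71 had 3.78, 0.640, 0.592 and 1.25 CPM (log2 fold change -4.39 ± 0.49, adjusted p = 8.2e-05), the highest in clone B9.3. Tbx3 had 0, 0, 1 and 0 counts against 560 in mesoderm, 0.181% of that level with a counting interval of 0.00456 to 1.01%. Klf4 fell by 2.75 ± 0.78 on the log2 scale (adjusted p = 0.021), a call that ended without wild-type mesoderm library B9.3 (adjusted p = 0.091) or HPC library C6.1 (adjusted p = 0.05). The other calls rested on few mesoderm counts, at 35 for Zscan10 and 10 each for Esrrb and Lncenc1, all with 0 in wild-type HPCs, so that Zscan10 was at least 11.5-fold lower and Esrrb and Lncenc1 at least 3.30-fold lower. Esrrb was no longer called without wild-type mesoderm library B9.3 or C8.1 (adjusted p = 0.059 and 0.058). Lin28b at 3.86, 5.63, 5.13 and 7.42 CPM (log2 fold change -0.56 ± 0.23, adjusted p = 0.10) and Mybl2 at 1.80, 2.81, 2.86 and 1.5 CPM (log2 fold change -0.08 ± 0.29, adjusted p = 0.89) were not called. With the clone as a block, 4 of 6 tested genes were called lower (12.5% of the 7343 genes in that fit were), namely Tbx3, Sall4, Lin28a and Trim71, whereas Klf4, Esrrb, Lncenc1 and Zscan10 did not pass the filter there.

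Over all 3 genotypes 9 genes could be tested between the stages and 5 were called lower in HPCs (16.3% of 9170 genes were), namely Zscan10, Tbx3 (log2 fold change -6.42 ± 0.50), Sall4 (-5.84 ± 0.45), Lin28a (-4.99 ± 0.61) and Trim71 (-3.99 ± 0.49). Their adjusted p-values ran from 1.2e-09 to 6.7e-07, and the median over the 9 genes was -3.99 beside 0.005 over all genes. Zscan10 had 202 counts over the 9 mesoderm libraries and 2 over the 12 HPC libraries, 1.16% of the mesoderm level with a counting interval of 0.14 to 4.25%. The P2-CTCF-KO HPC library D2.1 stood apart in 4 of these genes, with 27 counts of Tbx3, 54 of Sall4, 61 of Lin28a and 212 of Trim71, where the second library of the same clone had 3, 1, 0 and 8. It also had 67.9 CPM of endothelium, 8.02 CPM of endoderm and 3.70 CPM of neuroectoderm markers, each above every other HPC library. Blood progenitor markers were fewest in it, at 82.3 CPM against 120.7 to 275.1. The neuroectoderm sum was Nes alone, with Sox1, Pax6, Zic1, Neurog1 and Olig2 at 0. The endoderm sum held Gata4, Gata6, Sox7 and Sox17, with Foxa1, Foxa2, Afp and Ttr at 0. The part of these markers in the values above was not tested. Without D2.1 the log2 fold changes were -7.85 for Tbx3, -6.67 for Sall4, -7.05 for Lin28a and -4.67 for Trim71, and Zscan10 had no count left. Against undifferentiated mESCs, 29 of 32 genes were called lower in wild-type HPCs (25% of all genes tested were), with a median of -7.25, or -4.92 with 14 genes at their bound, beside -0.24 over all genes. Esrrb was at least 222.7-fold lower, Lncenc1 at least 417.6-fold, L1td1 at least 123.7-fold, Pou5f1 at least 72.1-fold and Zscan10 at least 53.6-fold. The exceptions were Lin28b (log2 fold change 0.05 ± 0.26, adjusted p = 0.90), Sycp3 (-1.73 ± 0.69, adjusted p = 0.058) and Klf2 (-2.08 ± 0.86, adjusted p = 0.065). In the 12 HPC libraries together, 17 of the 34 genes never had more than 3 counts, and Mybl2 and Lin28b alone had more than 3 in every library.

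The genotypes were compared within each stage, a question that addresses whether loss of the Runx1 CTCF sites altered these genes far from the deletions. In mesoderm edgeR called 0 of 9 tested genes between P2-CTCF-KO and wild type (0.0342% of 8778 genes were called), 0 of 9 between P1-CTCF-KO and wild type (0% of all genes) and 0 of 9 between P2-CTCF-KO and P1-CTCF-KO (0% of all genes). At an unadjusted p under 0.05 the counts were 5 (16.1% of all genes), 0 (1.89%) and 3 (11.2%) of 9, and DESeq2 called 1, 0 and 0 of 31. Over all genes with an adjusted p, DESeq2 called 2.33% of 7250, 0% and 1.23% of 7586, more than edgeR did. The comparisons share wild-type or knockout libraries. The median log2 fold change of the 9 genes was 0.76 for P2-CTCF-KO and 0.26 for P1-CTCF-KO against wild type, beside 0.009 and -0.005 over all genes. The gene called by DESeq2 was Lin28b (log2 fold change -1.05 ± 0.30, adjusted p = 0.026). Lin28b had 3.49, 3.26 and 1.77 CPM, as scaled within mesoderm, in P2-CTCF-KO clones D10.1, D2.1 and E9.1, all below the 6.69, 5.10 and 5.53 CPM of wild-type B9.3, C6.1 and C8.1 (edgeR log2 fold change -1.03 ± 0.25, adjusted p = 0.13). P1-CTCF-KO mesoderm held 4.69, 4.05 and 4.82 CPM, between the others (log2 fold change against wild type -0.36 ± 0.24, adjusted p = 1).

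In the same direction of comparison, the P2-CTCF-KO libraries all lay above the wild-type ones for 8 of 22 genes with at least 10 counts over the 6 libraries (9.21% of 11950 entries did so) and all below for 1, Lin28b (8.51% did so). The 8 were Klf5, Pou5f1, Sall4, Lin28a, L1td1, Zscan10, Otx2 and Ddx4, each with an exact 2-sided permutation p = 0.1, the smallest that 3 against 3 libraries allow. Sall4 had 31.0, 29.7 and 29.7 CPM, as scaled within mesoderm, in P2-CTCF-KO, a narrow range, and 7.48, 24.7 and 15.35 CPM in wild type (log2 fold change 0.94 ± 0.34, adjusted p = 0.22). Pou5f1 had 22, 9 and 7 counts against 0, 0 and 5. Otx2 had 17, 17 and 7 against 0, 2 and 2, L1td1 31, 6 and 6 against 0, 0 and 1, and Ddx4 6, 2 and 4 against 1, 1 and 1. Pou5f1, Otx2, L1td1 and Ddx4 reached 10 counts only through the P2-CTCF-KO libraries, so they could hardly have lain below wild type. The share over all entries, which reach 10 counts through either genotype, is therefore not a like comparison. In P1-CTCF-KO clones E7.1, E7.2 and E9.1 the counts were 0, 5 and 0 for Pou5f1 and 0, 2 and 1 for Otx2, overlapping wild type, and 3, 14 and 5 for L1td1. These low genes did not pass the filter of the edgeR fit. With no filter edgeR called L1td1 (adjusted p = 0.0013), Otx2 (log2 fold change 3.36, adjusted p = 0.0092), Pou5f1 (2.98, adjusted p = 0.043) and Zscan10 (1.53, adjusted p = 0.042) higher and Lin28b lower (-1.05, adjusted p = 0.014), 5 of 31 genes (2.49% of all 17333 genes in that fit were called). Markers of mesoderm were split, although their sum was 72.5 to 108.3 CPM in P2-CTCF-KO and 29.9 to 53.1 CPM in wild type. By mean CPM, Eomes, Mixl1, Pdgfra, T and Mesp1 were higher in P2-CTCF-KO, and Kdr (26.7 against 27.2) and Etv2 (0.24 against 0.28) were near equal. Tal1 (0.714 against 2.77) and Lmo2 (0.585 against 1.05) were lower. Markers of undifferentiated mESCs, 5 of which are members of the set, came to 3.48 to 8.82 against 0.814 to 1.21 CPM. Tdgf1, which is no member, made most of the P2-CTCF-KO sum, at 35 to 67 against 2 to 8 counts. Nanog, Pou5f1, Sox2, Zfp42 and Tdh were also higher by mean CPM. Esrrb was lower (0.0936 against 0.196), and Fgf4 had 0 counts in P2-CTCF-KO and in wild type. Endothelium markers were lower in P2-CTCF-KO, at 1.03 to 2.89 against 4.86 to 81.9 CPM. Blood progenitor markers were at 3.58 to 9.001 against 6.97 to 21.3 CPM. The endoderm list was mixed, its sum of 17.8 to 24.9 against 12.9 to 14.01 CPM being carried by Gata4 and Gata6, which mesoderm also uses, while Sox17 and Sox7 had 0 to 2 and 1 to 8 counts against 0 to 26 and 9 to 74, and Foxa1, Foxa2, Afp and Ttr had at most 1 count. The streak genes Eomes and Mixl1 ran from 162 to 275 and 146 to 349 counts against 14 to 47 and 13 to 38. The part of these cell types in the values of the 9 genes was not tested.

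**Figure D4:**
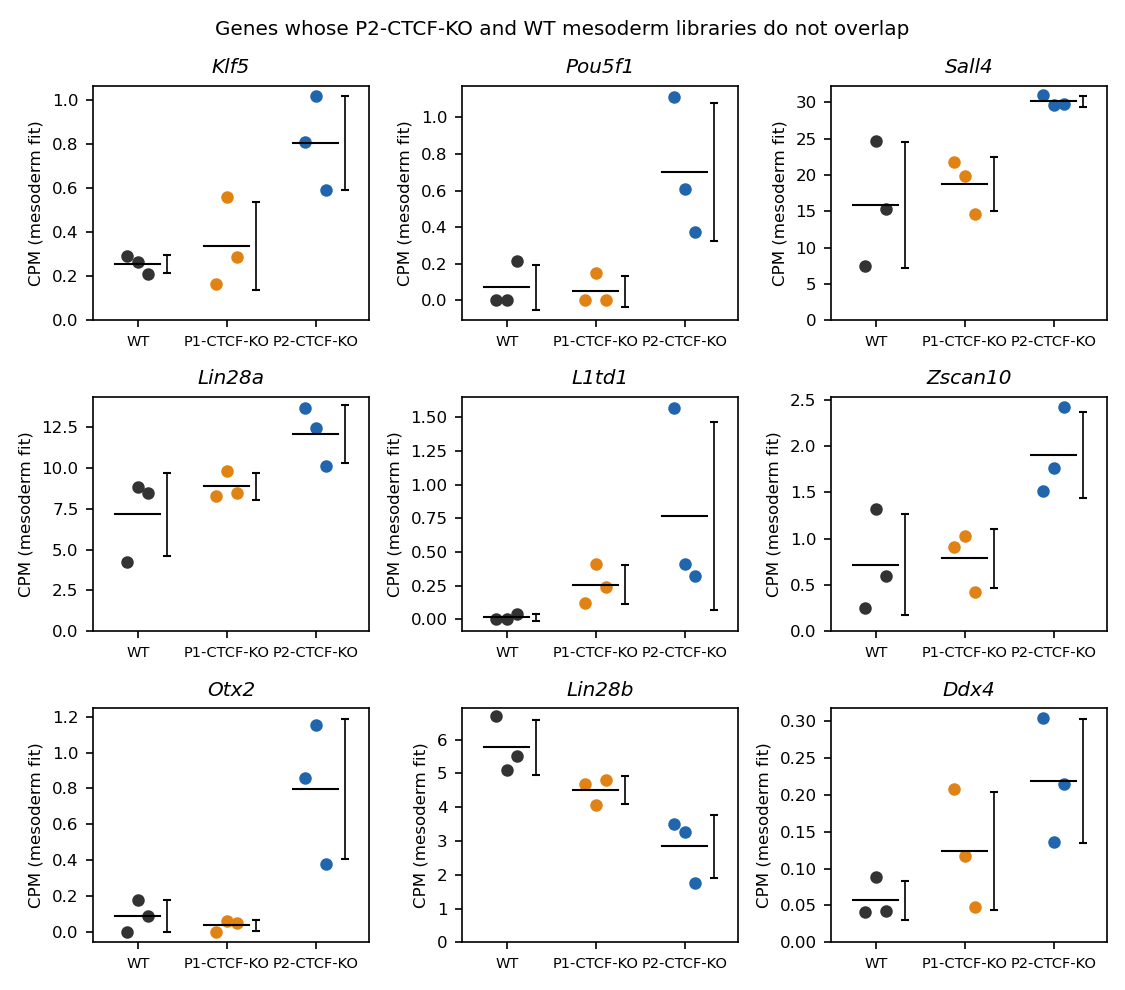
CPM within mesoderm of the 9 genes whose P2-CTCF-KO and wild-type libraries did not overlap, by genotype, with points for libraries, lines for means and bars for SD. Lin28b is the only one of the 9 with P2-CTCF-KO below wild type, and its P1-CTCF-KO libraries lie between the others.

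In HPCs 3 genes had counts enough for a test, Trim71, Mybl2 and Lin28b, and edgeR called 0 of them in each comparison (each knockout against wild type and P2-CTCF-KO against P1-CTCF-KO, with 0% of 7422 genes called in each), with 0 at an unadjusted p under 0.05 (1.95%, 3.5% and 8.76% of all genes) and 0 of 29 by DESeq2. Lin28b was at 3.86 to 7.42 CPM in wild type, 3.17 to 6.82 in P1-CTCF-KO and 3.15 to 7.74 in P2-CTCF-KO, with overlapping ranges. Between mesoderm and HPCs the effect of P2-CTCF-KO was called different for 0 of 9 genes (0.0218% of 9170 genes), with 1 gene, Lin28b, at an unadjusted p under 0.05 (7.01% of all genes) and 0 of 31 by DESeq2 (0.377% of 9558 genes).

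ATAC-seq peaks, which mark accessible DNA, lay at start sites of genes with and without counts in mesoderm. Wild-type mesoderm peaks (line E14-TG2a-RV in the study's methods) lay within 500 bases of the start of 14 of the 34 genes (41.2%, Wilson interval 26.4 to 57.8%) and of 51.9% of 24959 genes placed at a single locus. They comprised 10 of 15 naive genes, among them Nr0b1, Prdm14, Esrrb and Lncenc1, which had few counts at that stage, 4 of 11 general genes (Sall4, L1td1, Trim71 and Mybl2), 0 of 2 primed and 0 of 6 germline genes. Nanog had no peak within 500 bases, the nearest at 4648 bases, nor had Pou5f1, at 10723 bases. Lin28b likewise persisted with its nearest peak 3073 bases from the start. In HPCs 9 of 34 genes had a peak (26.5%, interval 14.6 to 43.1%, beside 34.7% of all genes), namely Klf2, Klf5, Tfcp2l1, Zfp42, Tbx3, Sox2, Sall4, Trim71 and Mybl2, and none of 6 germline genes. Each stage has a single peak list from merged libraries, so the shares have no replicate check, and the lists give no height. In the 416B hematopoietic progenitor line, CTCF peaks lay within 500 bases of the start of 2 of the 34 genes, the germline genes Tdrd12 and Morc1 (9.11% of all genes had one).

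Other genes of the same pathways were counted from lists chosen with the set. Between undifferentiated mESCs and wild-type mesoderm, where 13.6% of all genes were called lower and 10.8% higher, 13 of 18 tested genes of the LIF and naive network were called lower, among them the F-box gene Fbxo15 (log2 fold change -6.06 ± 0.47, adjusted p = 0.00014). Of the formative and primed genes 13 of 20 were called lower and 2 higher, and E-cadherin (Cdh1) fell by 5.19 ± 0.49 on the log2 scale. Of further germline genes 11 of 21 were called lower, such as Rnf17 at -2.53 ± 0.35. Of the MYB family and its partners 1 of 10, Ccnb1, was called lower, a share near that of all genes. In the let-7 and LIN28 axis 6 of 12 were called higher and 1, Mycn, lower. The architectural factor Hmga2, a let-7 target, rose by 4.13 ± 0.50, and Igf2bp2 by 1.84 ± 0.35. Between mesoderm and HPCs over the genotypes, where 16.3% of all genes were called lower and 16.9% higher, 7 of 12 genes of this axis were called lower and 1 higher, with Igf2bp1 at -2.43 ± 0.20 and Ccnd1 at -3.34 ± 0.41.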

How the data were processed

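The deposited table held read counts per gene over exons and introns, made by the authors with STAR and featureCounts on mm9 after removal of PCR duplicates. Reads kept from introns mean that unspliced RNA counts towards a level. The strand setting is not given in the sources used here. The deposited peak lists give start and end positions only, called by the authors with MACS2, from merged libraries for each ATAC-seq stage. Positions, widths and overlaps in bases were computed from them.

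The counts were tested as deposited with the quasi-likelihood test of edgeR 4.0.16 in R 4.3.3 (TMM factors, filterByExpr with a minimum count of 10, Benjamini-Hochberg adjustment over all genes tested). Fits covered the 9 wild-type libraries for changes between stages, the libraries of 1 stage for genotypes, and mesoderm with HPCs for changes over the genotypes. CPM used TMM factors over all 23 libraries. CPM within mesoderm used the factors of those 9 libraries. Each p-value measures the spread between libraries, which were 1 per clone in mesoderm and technical replicates in mESCs. In fits with HPCs it mixes the spread within and between clones. The further libraries of B9.3, D10.1 and D2.1 entered as separate replicates, except where the clone was a block or its libraries were summed. Intervals are 95% exact (ratios of counts) or Wilson (shares) and cover counting error only, as does the floor of 3 counts. DESeq2 1.42.0, other scalings and filters, and leaving out each library were tried as alternatives. edgeR and DESeq2 were first run on simulated data in which the changed genes were known.

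Clone names shared by mesoderm and HPC libraries mark the same clonal line per the labels, so the clone was used as a block. Deviations of the same clone from its group means correlated at -0.067 to 0.198 between the stages over 7189 genes. Every member past the threshold in a comparison was to be named, as was every member that persisted, and from each companion list at most the 4 genes with the smallest adjusted p. The members and lists were chosen with earlier results of these data known.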

Additional observations from a re-analysis of the deposited data

Results flagged for a closer look

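Among 13 tests of single libraries in groups of 4 or 5 libraries, 6 picked out the same one, the HPC library D2.1 of P2-CTCF-KO, as far from its group. A group was tested only where a library reached 10 counts, and for genes such as Tbx3, Nr5a2, Lncenc1 and Lin28a D2.1 alone did so. The tests were thus partly chosen by the outlying library, so no rate expected by chance applies to them. D2.1 had 1.88 CPM of Tbx3, with 0 to 0.317 CPM in the other 4 libraries, 0.907 CPM of Nr5a2 against 0 to 0.109, and 0.767 CPM of Lncenc1 against 0 to 0.0968. For the general genes it had 3.77 CPM of Sall4 against 0.106 to 0.768, 4.25 CPM of Lin28a against 0 to 0.109, and 14.8 CPM of Trim71 against 0.435 to 1.92. These values rested on 27, 13, 11, 54, 61 and 212 counts, and the second library of that clone lay within the range of the rest. The sum of undifferentiated mESC markers, 5 of which are members of the set, was 2.16 CPM in that library.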

How the results depend on the processing

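Of the counts and shares that answer a comparison, 235 alternatives stayed within 1.5 times the value given and 11 moved. Between HPCs and mesoderm over the genotypes, 5 genes were called lower, but DESeq2 called 11 (17.4% of all genes), no filter on low counts gave 16 (15.7%), and a fit of all 23 libraries gave 16 (18.9%). The 11 do not include Lin28a, for which DESeq2 gave a log2 fold change of -5.70 but no p-value. For P2-CTCF-KO against wild-type mesoderm DESeq2 called 1 and no filter gave 5, and against P1-CTCF-KO mesoderm no filter gave 2. The paired fit with the clone as a block called 4 genes between wild-type HPCs and mesoderm in place of 8, fewer genes being tested, and Lin28b and Mybl2 were not called in it either. Where a peak had to cover the start itself, 9 genes had one in mesoderm and 5 in HPCs. With library sizes taken without ribosomal RNA and multi-locus entries and no normalization factors, a double change chosen after seeing the data, 1 gene persisted in mesoderm, Tbx3, and Lin28b turned from higher to lower at -1.05 (adjusted p = 0.036). With the same library sizes and TMM factors 6 persisted and Lin28b was at 0.63. Leaving out each library in turn gave 18 to 25 changed genes for mesoderm and 27 to 31 for HPCs against mESCs, 6 to 8 for wild-type HPCs against mesoderm, 5 to 7 over the genotypes, 6 to 7 persisting genes and 0 to 1 for P2-CTCF-KO against P1-CTCF-KO mesoderm, the 1 being Otx2 without wild-type mesoderm library B9.3. Of the alternatives for single genes reported, 1400 kept their direction and side of the threshold, 36 fell short of it, 13 newly passed it, 1 reversed (Lin28b, above) and 1 level moved by more than its SD. Genes that only an alternative could test are not among these. Low counts in HPCs limit what can be seen there, and 2 technical replicates stand for mESCs.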

Other observations

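P1-CTCF-KO mesoderm clone E7.2 kept more counts of several naive genes than the other 8 mesoderm libraries, with 26 of Esrrb, 18 of Tfcp2l1, 26 of Zfp42 and 22 of Lncenc1, where the others had at most 6, 7, 9 and 7. Its summed undifferentiated mESC markers, a list that shares members with the set, came to 4.73 CPM, above the other P1-CTCF-KO clones (0.934 and 1.31 CPM) and wild type but below P2-CTCF-KO D10.1 and D2.1 (8.82 and 5.81 CPM). It also had 13 counts of the germline gene Tdrd12, against 0 to 6 in the other mesoderm libraries.

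Between mesoderm and HPCs over the genotypes, where 16.3% of all genes tested were called lower and 16.9% higher, 6 of 7 tested formative and primed genes were called lower, among them the zinc finger gene Zic2 (log2 fold change -7.28) and the Wnt effector Lef1 (-5.34). Of the LIF and naive network, 4 of 9 were called lower and 1 higher, with the LIF receptor gene Lifr at -2.61. Of the MYB family and its partners 2 of 8 were called higher, Lin52 (1.07) and Myb (1.26), the latter a factor of blood progenitors. Of further germline genes 2 of 5 were called higher, Tex14 (1.59) and Tdrkh (1.61). In mesoderm of P2-CTCF-KO against wild type the formative and primed list had a median log2 fold change of 1.01 over 9 genes, beside 0.01 over all genes tested, with no gene of it called by edgeR.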
